A study of Mus musculus with 2 samples.

Results

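Potassium channel genes were described in the neural tube of the mouse embryo at embryonic day 12.5. The members were the protein-coding genes of the GENCODE M21 annotation whose symbol is Kcn, a subfamily letter or letters and a number. They numbered 92 of 22028 protein-coding genes, and all 92 were present in the deposited gene tables. They were sorted by subfamily into 15 role groups. Pore-forming subunits made up 77 members and auxiliary subunits 15.

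The study measured polyadenylated RNA in 1 group with 2 libraries, so no condition was compared with another. Both came from strain B6NCrl, with no treatment, allele or transgene in the labels. Replicate 1 was a pool of 120 embryos and replicate 2 a pool of 88, each with both sexes, so that no value belongs to a single embryo. Each library was made from 10 ng of total RNA by oligo-dT priming in a low-input kit and tagmentation, with ERCC spike-in RNAs added. No strand-specific step is named in the labels, and reads of overlapping genes on opposite strands could not be told apart.

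Gene counts summed to 32527913 in replicate 1 and 34436572 in replicate 2, and spike-ins took 2.99% and 2.89% of all counts. The tissue label was set against marker lists: all 6 neural progenitor, all 7 neuron and all 5 motor neuron markers reached 1 TPM in each library. Markers of other cells were present too: all 7 for sensory ganglion, all 6 each for Schwann cells and crest and for macrophages, and all 5 each for endothelium, pericytes and smooth muscle, erythroid cells, epithelium and mesenchyme. Skeletal muscle had 5 of 6, heart 4 of 5 and choroid plexus 0 of 5. Of 5 forebrain markers 1 reached that level, and Nkx2-1 was at 0 in both. Summed sensory ganglion markers were at 150 TPM in replicate 1 and 222 TPM in replicate 2, and summed skeletal muscle markers at 236 and 168 TPM. In bulk samples such as these, fewer cells of a type and less RNA per cell cannot be told apart.

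Potassium channels let potassium ions cross the membrane along their gradient and so set the resting potential and end action potentials. Voltage-gated (Kv), calcium-activated, inwardly rectifying (Kir) and leak (K2P) families share a pore loop whose selectivity filter is a short run of residues ending in glycine, an aromatic residue and glycine. Auxiliary subunits form no pore but change how pore-forming subunits gate or reach the surface. In the developing spinal cord such channels are known from dividing progenitors as well as from young neurons.

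The filter is the stretch that separates a channel subunit from its auxiliary partners, so its coding bases are shown for members the results turn on. Each line is 39 bases of a GENCODE M21 transcript on mm10, read 5′ to 3′ on the coding strand, with the 5 filter codons in capitals.
Kcnk10, first pore: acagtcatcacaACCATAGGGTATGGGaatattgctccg
Kcnk10, second pore: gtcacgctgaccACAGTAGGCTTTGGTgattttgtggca
Kcnn1: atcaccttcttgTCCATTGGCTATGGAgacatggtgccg
Kcnh2: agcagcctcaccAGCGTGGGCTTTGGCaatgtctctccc
Kcna6: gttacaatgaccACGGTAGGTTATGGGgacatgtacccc
Kcnc1: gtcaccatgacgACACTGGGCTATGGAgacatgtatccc
Kcnu1: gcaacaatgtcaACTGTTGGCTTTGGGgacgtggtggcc
The second pore of Kcnk10 lies at chr12:98440593-98440631 (minus strand). The first pore of Kcnk10 is joined from exons, so its 39 bases have no single interval. The others lie at chr8:70850645-70850683 (minus) for Kcnn1, chr5:24325543-24325581 (minus) for Kcnh2 and chr6:126738635-126738673 (minus) for Kcna6. Kcnc1 has its run at chr7:46427961-46427999 (plus) and Kcnu1 at chr8:25881378-25881416 (plus). Each of these intervals is inside 1 coding exon.

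A filter signature was defined as threonine or serine, then valine, isoleucine, threonine or leucine, then glycine, then tyrosine, phenylalanine or leucine, then glycine. This definition was set with the coding sequences in view, so the counts that follow describe them and test nothing. All 77 pore-forming members encoded it and 0 of the 15 auxiliary members did. In 63 members it occurred 1 time, and in the 14 K2P members, whose subunits carry a pair of pore loops, 2 times. The most frequent of its forms, with threonine, isoleucine, glycine, tyrosine and glycine, made up 25 of the 91 signatures, and the form with valine in second place 23. Serine in first place followed by phenylalanine before the last glycine was found in 7, among them Kcnh2.

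The bases varied more than the residues. Outside chromosome 18, whose sequence is not printed here, the 89 signatures used 77 different runs of 15 bases. The filter codons crossed a splice junction in 17 signatures, which were the first signature of all 14 K2P members and the signature of all 3 Kv4 members. They crossed one in none of the other signatures.

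Of the 92 members, 48 reached 1 TPM in each of the libraries, the level counted here as expressed (TPM is a length-corrected abundance scaled to 1 sum per library). That is 52.2%, beside 60.9% of all protein-coding genes. A further 7 members reached 1 TPM in 1 library only, among them Kcnq1 in replicate 1, and Kcnq5, Kcnv1, Kcnj2, Kcnj10 and Kcnj3 in replicate 2. The other 37 were below it in both. At 5 TPM or more in both libraries 17 members were left, beside 49.5% of protein-coding genes, and no member reached 100 TPM.

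Together the members summed to 325 TPM in replicate 1 and 347 TPM in replicate 2 (336 ± 15.3, SD, n = 2). They took 20725 and 23148 counts, or 0.0637% and 0.0672% of all gene counts. The 10 highest members held 56.5% and 56.0% of the summed level. Auxiliary subunits, 15 of the 92 genes, held 32.6% and 32.7% of it. Of the auxiliary members 11 of 15 were expressed, and of the pore-forming members 37 of 77.

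**Figure D1:**
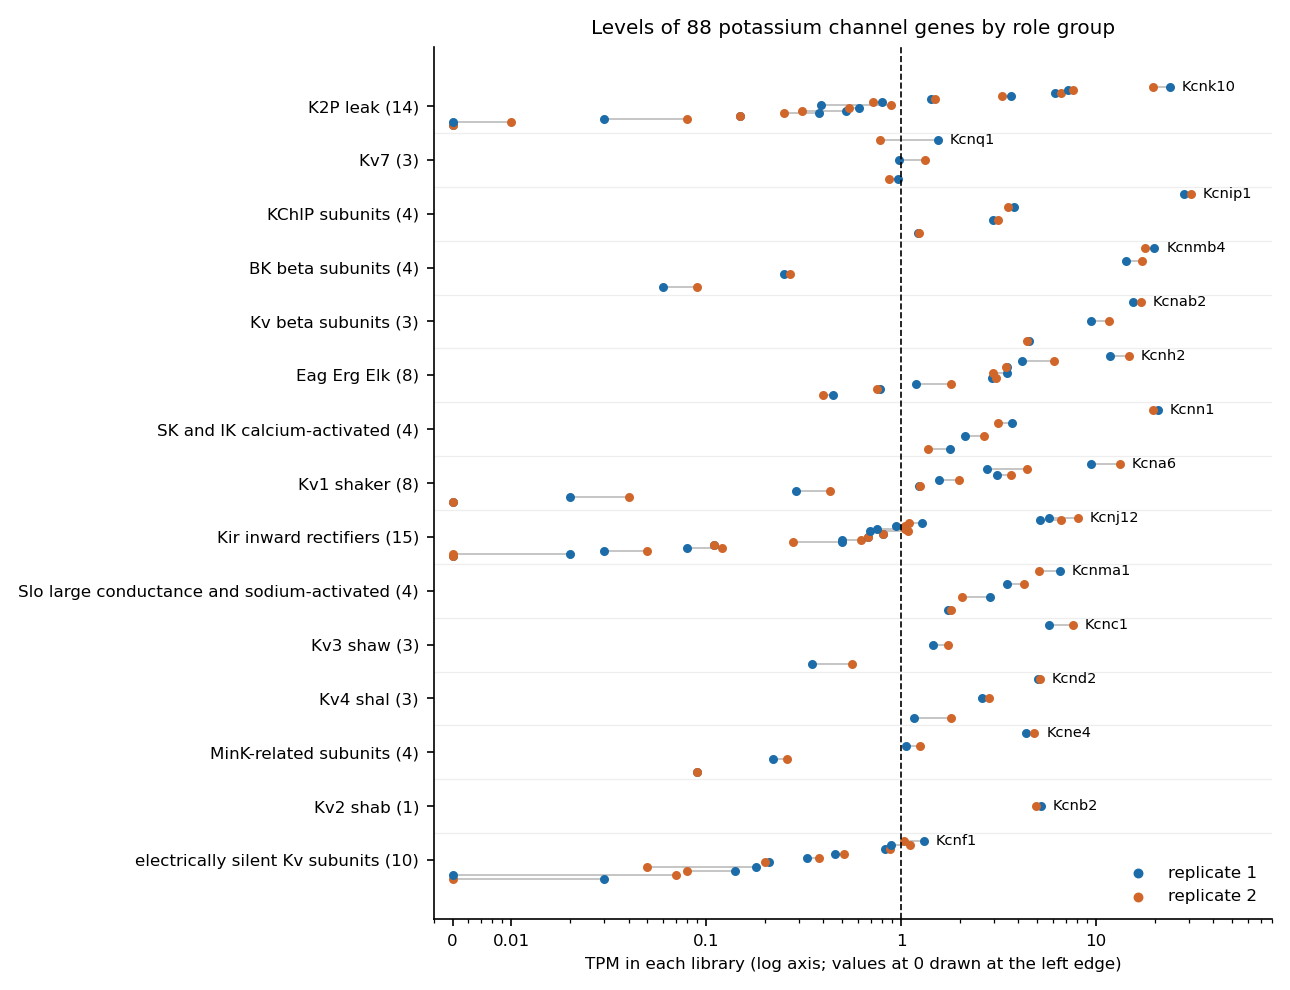
TPM of 88 of the 92 members in each library on a log axis, with 1 row of points per role group (number of members drawn in brackets) and a grey line joining the libraries. The dashed line marks 1 TPM, and the highest member drawn in each group is named. Kcnip1, Kcnk10 and Kcnn1 lie farthest to the right, and most Kir and electrically silent members lie left of the line.

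Among the Kv7 channels, which carry the M-current that restrains repetitive firing, Kcnq3 was at 0.96 and 0.87 TPM, below 1 TPM in both libraries. Kcnq1, known from heart and epithelia, was at 1.55 and 0.78 TPM, and Kcnq5 at 0.98 and 1.33 TPM. The order of Kcnq1 and Kcnq5 thus changed between the libraries.

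The K2P group had the highest sum in the M21 tables, 45.3 and 41.6 TPM over 14 members, 5 of them expressed. In the tables made with the older GENCODE M4 annotation its mean sum was 35.8 TPM, below those of the KChIP (39.6 TPM) and BK beta (36.7 TPM) groups. Kcnk10 (TREK-2), a leak channel opened by membrane stretch, lipids and heat, was at 24.0 and 19.6 TPM, and at 14.6 and 12.5 TPM in the M4 tables. Its close relative Kcnk2 (TREK-1) was at 7.21 and 7.61 TPM. The pH-sensitive channels Kcnk5 (TASK-2) and Kcnk3 (TASK-1) were at 6.13 and 6.61 TPM and at 1.42 and 1.5 TPM, and the weak inward rectifier Kcnk1 at 3.67 and 3.31 TPM. By gene level the group was thus led by both TREK genes, with Kcnk2 not far above Kcnk5. On transcripts that encode both pore loops Kcnk2 was at 5.85 and 5.48 TPM, below Kcnk5 at 6.13 and 6.61 TPM. The 9 members not counted as expressed were below 1 TPM in both libraries. Among these, Kcnk9 (TASK-3) was at 0.80 and 0.72 TPM and Kcnk4 (TRAAK) at 0.39 and 0.89 TPM, and Kcnk16 had no count. Kcnk4 was at 0 TPM in both libraries on transcripts that encode both pore loops. In the M4 tables its gene level was 0.06 and 0.18 TPM.

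Calcium-activated channels were led by an SK gene. Kcnn1 (SK1), a small-conductance channel that slows firing after an action potential, was at 20.7 and 19.6 TPM but at 9.08 and 8.56 TPM in the M4 tables, and Kcnn2 (SK2) at 3.69 and 3.13 TPM. All 4 members of that group were expressed, with Kcnn3 at 2.12 and 2.67 TPM and Kcnn4, the intermediate-conductance channel of blood and epithelial cells, at 1.79 and 1.38 TPM. Kcnma1, the only pore subunit of the large-conductance BK channel, was at 6.51 and 5.10 TPM. The sodium-activated Kcnt1 and Kcnt2 were at 3.48 and 4.25 TPM and at 1.75 and 1.81 TPM. Kcnu1, known as a channel of sperm, was at 2.87 and 2.06 TPM.

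The beta subunits of BK channels stood above their pore subunit. Kcnmb4, the neuronal beta subunit that slows activation, was at 19.9 and 17.9 TPM, and Kcnmb2, which inactivates the channel, at 14.2 and 17.2 TPM. Both exceeded Kcnma1 in each library. Kcnmb1, the beta subunit of smooth muscle, was at 0.25 and 0.27 TPM, and Kcnmb3 at 0.06 and 0.09 TPM. The deposited posterior SD of Kcnmb4, which reflects the split of shared reads, was 3.81 and 5.01 reads on 504 and 497 counts.

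Eag, Erg and Elk channels had 6 of 8 members expressed. Kcnh2 (ERG1), which repolarises heart and other excitable cells, was at 11.8 and 14.7 TPM. Kcnh6 (ERG2) followed at 4.17 and 6.07 TPM, and the third Erg gene, Kcnh7, was at 2.92 and 3.08 TPM. The Elk genes Kcnh4 and Kcnh8 were at 3.50 and 3.45 TPM and at 3.51 and 2.98 TPM, and the Eag gene Kcnh1 at 1.19 and 1.81 TPM. All 3 Erg genes were expressed, whereas Kcnh5, the other Eag gene, was at 0.78 and 0.75 TPM and the Elk gene Kcnh3 at 0.45 and 0.40 TPM.

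Among the Kv1 channels, which act near threshold along axons, Kcna6 was highest, at 9.38 and 13.3 TPM. Kcna1 was at 2.76 and 4.41 TPM, and at 1.61 and 2.34 TPM in the M4 tables. Kcna3 was at 3.12 and 3.66 TPM, Kcna5 at 1.57 and 1.99 TPM and Kcna4 at 1.23 and 1.25 TPM. Kcna2, a main axonal Kv1 gene of the adult, was at 0.29 and 0.43 TPM. The log2 ratio of Kcna6 over Kcna1 was 1.76 and 1.59. In the other Kv families, the delayed rectifier Kcnb2 was at 5.24 and 4.90 TPM. Kcnc1, a fast Kv3 channel of rapidly firing neurons, was at 5.71 and 7.62 TPM and Kcnc2 at 1.46 and 1.75 TPM.

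All 3 Kv4 genes, which carry the transient A-type current, were expressed, with Kcnd2 at 5.04 and 5.18 TPM, Kcnd3 at 2.60 and 2.81 TPM and Kcnd1 at 1.16 and 1.80 TPM. KChIP subunits are calcium sensors that bind Kv4 channels. Kcnip1 was at 28.2 and 30.6 TPM (29.4 ± 1.70, SD, n = 2), from 1011 and 1132 counts. The counting interval (95%, exact Poisson, counting error only) ran from 28.8 to 32.4 TPM in replicate 2. The sum of the 4 KChIP genes, 36.2 and 38.5 TPM, exceeded that of the Kv4 pore genes, 8.80 and 9.79 TPM, in both libraries. The Kcnip2, Kcnip4 and Kcnip3 genes were at 3.79 and 3.54 TPM, 2.98 and 3.16 TPM, and 1.22 and 1.23 TPM.

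Kv beta subunits, which bind Kv1 channels, were all expressed. Kcnab2 was at 15.6 and 17.0 TPM, Kcnab1 at 9.44 and 11.6 TPM and Kcnab3 at 4.56 and 4.42 TPM. Of the 4 MinK-related subunits, single-pass partners of Kv channels, Kcne4 was at 4.39 and 4.83 TPM and Kcne3 at 1.06 and 1.25 TPM, and Kcne2 and Kcne1 were below 0.3 TPM. Electrically silent Kv subunits form no channel alone but change Kv2 channels when they join them. Only Kcnf1 of these 10 was expressed in both libraries, at 1.31 and 1.03 TPM; Kcnv1 was at 0.89 and 1.11 TPM, so that their order changed between the libraries.

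**Figure D2:**
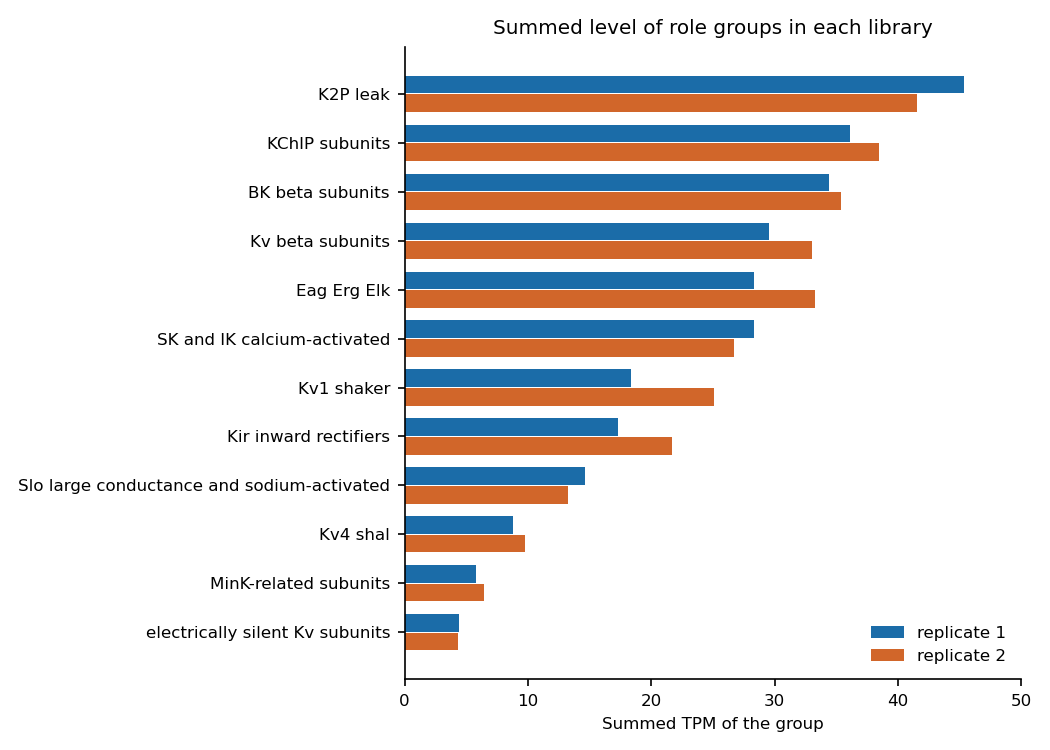
Summed TPM of 12 of the 15 role groups in each library, ordered by the mean of the libraries in the M21 tables. K2P, KChIP and BK beta genes have the longest bars of those drawn, and the MinK-related and electrically silent groups the shortest.

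Kir channels, which hold the membrane near the potassium potential, were the largest group with the fewest members expressed in proportion apart from the silent subunits, 3 of 15. Kcnj12 (Kir2.2) was at 5.77 and 8.10 TPM. Kcnj8 (Kir6.1), the pore of the vascular ATP-sensitive channel and a marker of pericytes, was at 5.15 and 6.64 TPM, beside 84.6 and 73.5 TPM for the summed pericyte and smooth muscle markers, and Kcnj9 (Kir3.3) at 1.28 and 1.10 TPM. The sulfonylurea receptors that complete ATP-sensitive channels were Abcc9, at 1.66 and 1.89 TPM, and Abcc8, at 4.73 and 5.98 TPM, whereas Kcnj11 (Kir6.2), the other pore of this kind, was at 0.50 and 0.62 TPM. Kcnj10 (Kir4.1), a channel of mature glia, was at 0.75 and 1.05 TPM.

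Kcnk16, Kcnj4 and Kcna10 had no count in either library. With 3 counts as the limit that a count of 0 allows, their levels could be up to 0.101 and 0.0973 TPM, 0.0698 and 0.0674 TPM, and 0.138 and 0.134 TPM in replicates 1 and 2. These limits cover counting error only. Kcnk16 is known from the pancreas and Kcna10 from the inner ear.

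Of 23 other channel partners and regulators, a list of genes outside the Kcn rule, 18 were expressed. The calmodulin genes Calm2 and Calm3, whose product binds SK channels, were at 1401 ± 124 and 175 ± 9.38 TPM (SD, n = 2). The axonal Kv1 partners Cntnap2 and Adam22 were at 23.8 ± 3.36 and 18.6 ± 1.68 TPM, and the scaffold Dlg4 at 19.3 ± 1.16 TPM. The lowest were the BK gamma subunits Lrrc52 and Lrrc26, at 0.02 ± 0.0283 and 0.04 ± 0.0566 TPM. In the comparison of libraries described next, 0 of the 21 partners tested passed the call in either direction by the exact binomial test. All 21 were within 1.5-fold, beside 88.8% of all genes tested. An unadjusted p under 0.05 was found for 11 (52.4%) in that test, beside 31.1% of all genes tested. In edgeR's exact test with 1 dispersion for all genes it was found for 1 (4.76%), beside 7.92% of all genes tested.

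The libraries were then compared with each other by a two-sided exact binomial test of counts against scaled library sizes, with Benjamini-Hochberg adjustment over all 20125 genes tested. The outcome describes these 2 libraries, with no replicate check. Among the 77 members with at least 10 counts in a library, 2 were higher in replicate 2 past 1.5-fold at an adjusted p under 0.05, beside 1.46% of all genes tested, and 0 were lower, beside 2.19%. At any fold, 10 of the 77 had an adjusted p under 0.05, beside 20.3% of all genes tested. The median log2 ratio of replicate 2 over replicate 1 was 0.0018 over members and 0.00077 over all genes tested. Within 1.5-fold were 67 of the 77 members, or 87.0%, beside 88.8% of all genes tested.

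The called members were Kcnh6 and Kcnd1. Kcnh6 had 215 and 349 counts, a log2 ratio of 0.61 with a 95% counting interval from 0.36 to 0.86 (adjusted exact binomial p = 1.73e-05). Kcnd1 had 126 and 202 counts, a log2 ratio of 0.59 with an interval from 0.27 to 0.93 (adjusted exact binomial p = 0.0027). Both intervals reached below the 1.5-fold line. A dispersion common to all genes allows for spread beyond counting. It was estimated from these same 2 libraries taken as 1 group, so the difference tested is already part of it. With this dispersion 0 members passed edgeR's exact test, beside 1.08% of all genes tested. An unadjusted p under 0.05 in it was found for 10 members (13.0%), beside 7.92% of all genes tested. The smallest adjusted p of a member in that test was 0.0628, for Kcna6. In the M4 tables Kcnd1 was at 0.58, under the fold line, and with spike-in scaling 7 members were called, beside 3.86% of all genes tested.

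Short of the fold line, Kcna6 had 912 and 1410 counts, a log2 ratio of 0.54 (adjusted exact binomial p = 6e-17). Kcna1, its neighbour on chromosome 6, had 208 and 325 counts and a log2 ratio of 0.55 (adjusted exact binomial p = 1.87e-04). The Kv1 group was above 0 in 6 of its 6 tested members, with a median of 0.42, and 40 of all 77 tested members were above 0. The single member at an adjusted p under 0.05 with fewer reads in replicate 2 was Kcnk10, at a log2 ratio of -0.30 (adjusted exact binomial p = 5.86e-05). All 7 sensory ganglion markers had a log2 ratio above 0, with a median of 0.55, and the skeletal muscle markers had a median of -0.50. Motor neuron markers had a median of -0.43 and heart markers of -0.54, each with 1 of 5 above 0. The part of these cell types in the members' ratios was not tested.

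**Figure D3:**
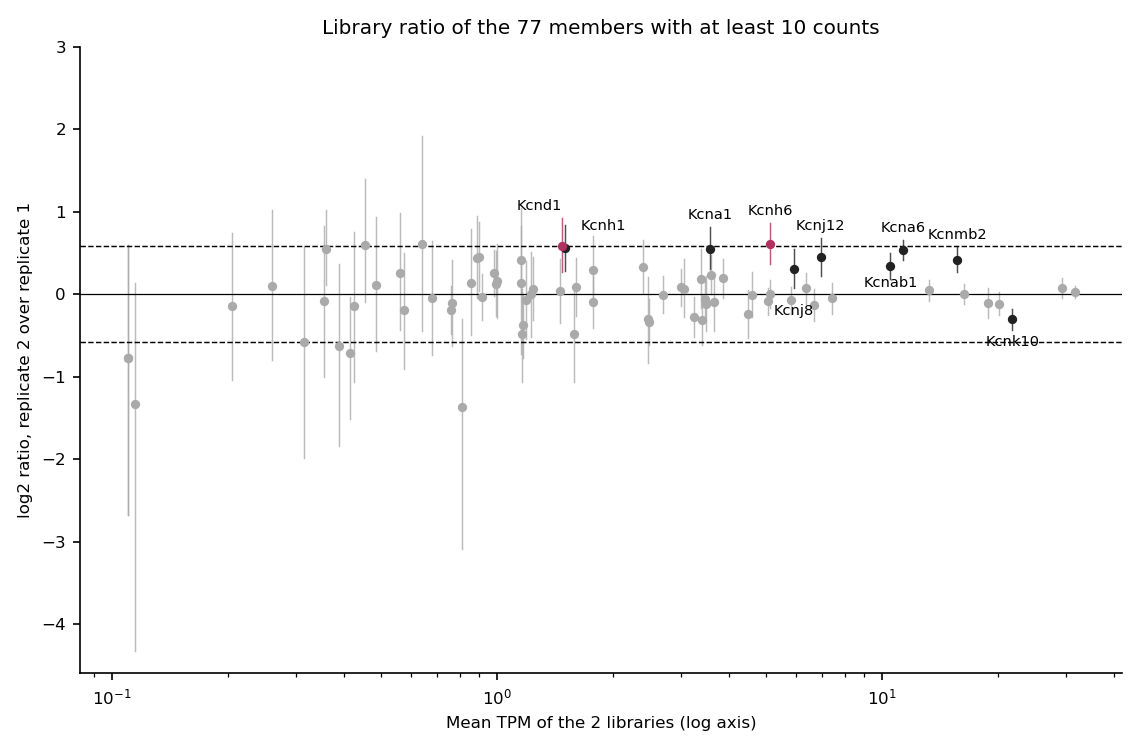
Log2 ratio of counts, replicate 2 over replicate 1, against mean TPM for the 77 tested members, with 95% counting intervals as vertical lines. Dashed lines mark 1.5-fold; the 10 members at an adjusted p under 0.05 are named, with Kcnh6 and Kcnd1 in red and the other 8 in black. The points gather around 0, and the widest intervals belong to members under 1 TPM.

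Transcript tables give each transcript's estimated percent of its gene's TPM. For 39 of the 48 expressed members a single transcript held on average at least 50%, and for 11 at least 90% in both libraries. The most abundant transcript differed between the libraries in 9 members: Kcna1, Kcne3, Kcnh1, Kcnh7, Kcnip3, Kcnip4, Kcnma1, Kcnn4 and Kcnt1. Kcnma1, with 38 annotated transcripts, had its highest mean share in Kcnma1-205, at 21.1% and 27.0%, although another transcript was above it in replicate 1. These shares are estimates from reads that several transcripts can share. Those of some genes near 1 TPM, such as Kcne3 with 22 and 26 counts, rest on few reads.

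Pore-forming members were examined for transcripts that encode the full filter set, which is 1 signature, or 2 for K2P genes. Of the 37 expressed, 18 had at least 90% of their TPM on such transcripts in both libraries. Where every annotated transcript encodes the set, as in Kcnb2 and Kcnj12, the annotation fixes the share at 100% whatever the reads. In 3 the share was under 50% in both: Kcnu1 at 0% and 0%, Kcnh7 at 22.5% and 23.7%, and Kcnt1 at 43.3% and 38.7%. By these estimates, most of the TPM of these genes lay on RNA without an annotated complete pore. TPM is length-corrected, and the split of reads can differ from it. In Kcnh7, the transcript with the filter, Kcnh7-201, took 182 and 209 of the gene's 303 and 341 reads.

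In Kcnu1 all 70 and 60 counts were assigned to transcripts without the filter. Its most abundant transcript, Kcnu1-202 with 61.4 and 60.0 reads, spans chr8:25911680-25937933 on the plus strand. The full-length Kcnu1-201 starts upstream, spanning chr8:25849623-25937939 with 27 exons, and had 0 reads in both libraries. Kcnu1-202 has 8 exons and 381 codons, and shares 1376 of its 1446 exonic bases with Kcnu1-201. The filter shown above lies upstream of the start of Kcnu1-202. Lrrc52, the gamma subunit that Kcnu1 is known to join in sperm, was at 0 and 0.04 TPM.

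In Kcnk10, Kcnk10-203 held 51.5% and 47.3% of the TPM, from 326 and 252 reads. It encodes 241 codons and the first pore only. Transcripts with both pores shown above held 47.8% and 52.0% of the TPM. These took most of the gene's 1061 and 913 reads: 544 and 506 on Kcnk10-201, and 187 and 152 on Kcnk10-202. Kcnh7-203, at 60.9% and 30.5% from 110.95 and 60.55 reads, has 522 codons and ends before the filter. The filter is at codon 627 of Kcnh7-201. Kcnc1-202, a processed transcript with no coding sequence and 531 exonic bases, was at 43.0% and 61.7% but from only 22.2 and 44.0 reads. It accounted for 2.46 and 4.7 TPM of the gene's 5.71 and 7.62 TPM, while the gene's counts were 462 and 449, a log2 ratio of -0.13.

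In Kcna6 the split of reads lay between models with nearly the same span. Its most abundant transcript, Kcna6-201, is annotated as a target of nonsense-mediated decay yet encodes the filter within 529 codons. It was at 71.0% and 47.3%, with 799 and 782 of the gene's 912 and 1410 reads. The protein-coding Kcna6-204 had 0 reads in replicate 1 and 483.5 in replicate 2. It spans chr6:126708332-126740674, and Kcna6-201 spans chr6:126708329-126740662, both on the minus strand. Whether use of the models differed, or only the division of shared reads, was not tested. Counted over all transcripts with the filter, Kcna6 was at 71.1% and 79.0%.

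**Figure D4:**
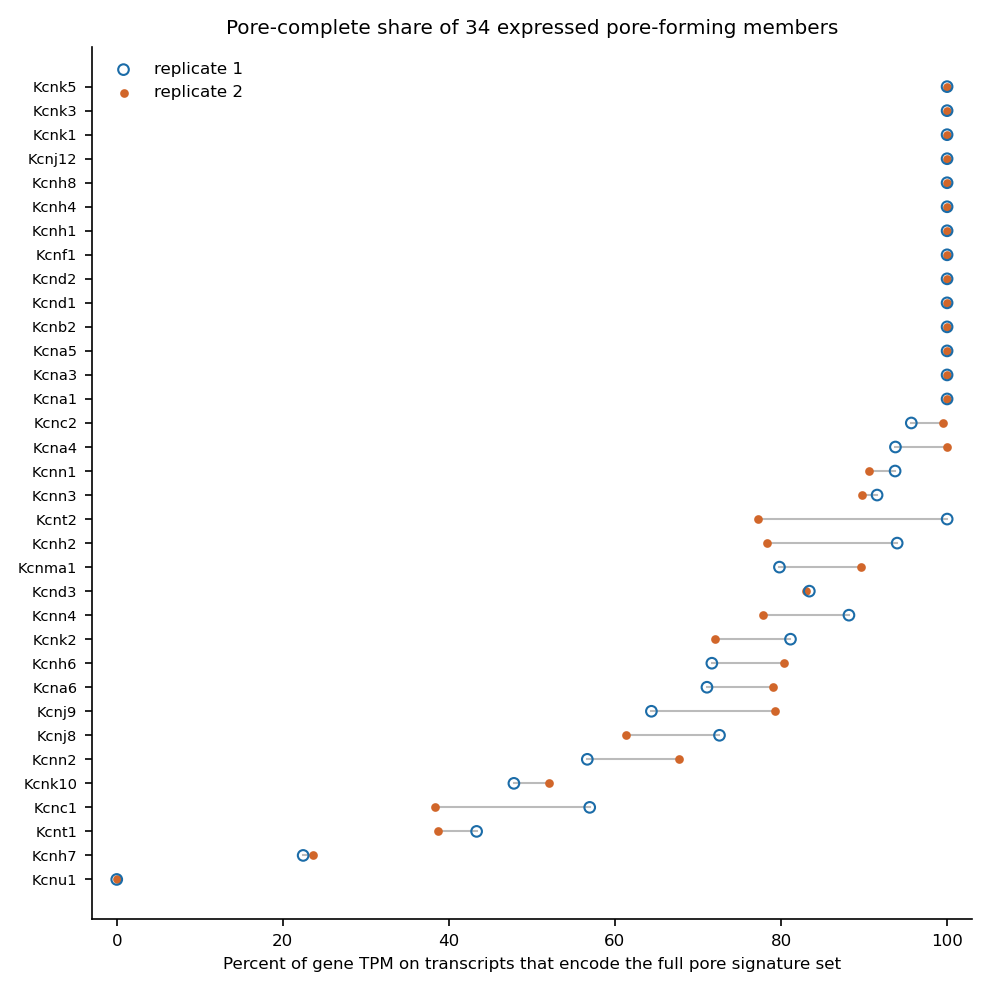
Percent of gene TPM on transcripts that encode the full filter set, for 34 of the 37 expressed pore-forming members in each library, ordered by the mean. Members from Kcnk5 down to Kcna1 sit at 100% in both libraries, and Kcnt1, Kcnh7 and Kcnu1 are below 50% in both. For members whose annotated transcripts all encode the set, 100% is fixed by the annotation.

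Some members are neighbours in the genome. On chromosome 6, Kcna5, Kcna1 and Kcna6 lie in 1 run, with gaps of 105 kb and 61.9 kb between neighbours, and all 3 were expressed. On chromosome 3 the run of Kcna3, Kcna2 and Kcna10 has gaps of 63.1 kb and 68.1 kb, and only Kcna3 was expressed. Kcnmb1 lies inside the span of Kcnip1 on chromosome 11, on the other strand, and the levels were 0.26 and 29.4 TPM in mean. Kcnk5 and Kcnk16 are 79.6 kb apart on chromosome 14, with Kcnk5 expressed and Kcnk16 at 0.

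Exons of some members overlap those of other genes. Kcnj13 shares 623 of its 1270 exonic bases with Gigyf2 on the other strand, which was at 51.7 and 49.2 TPM. Kcnj13 was at 0.81 TPM in both libraries, though its counts were 19.9 and 6.83 (deposited posterior SD 1.32 and 1.96), and which of these reads came from Gigyf2 cannot be told apart. Kcnmb4 shares 693 of 3324 exonic bases with Kcnmb4os2, at 4.31 and 4.56 TPM, and Kcnip4 shares 168 of 3627 with 5730480H06Rik, at 20.3 and 19.8 TPM. Kcnk4 shares 587 of 4465 bases with Catsperz on the same strand.

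RefSeq start windows (GRCm38.p6, 250 bases before to 50 after each gene's start) were matched for 67 members by symbol. The dinucleotide CG occurred a median of 11 times in the 37 matched members that were expressed and 9 times in the 30 that were not. Over all protein-coding genes with a window the medians were 21 in 10414 expressed genes and 3 in 6108 others. Windows are taken at 1 start per gene, which is not always that of the most abundant transcript. The distance between these starts was 149666 bases in Kcnip1 and 160172 in Kcnab1, but 0 in others such as Kcnj8.

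The pore subunits of voltage-gated sodium and calcium channels (Scn and Cacna1 genes) were set beside the members as a description. Of these 20 genes, 15 were expressed, or 75%, and their summed level was 144 and 153 TPM. Their median level was 4.58 TPM, beside 1.18 TPM for the potassium channel members, auxiliary subunits included, and 5.11 TPM for all protein-coding genes. Over the 77 pore-forming members alone the median was 1.155 TPM, and 37 of them, or 48.1%, were expressed. The difference between these gene families was not tested.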

How the data were processed

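Per the labels' protocols, oligo-dT-primed, tagmented libraries were sequenced. The authors deposited, per library, gene and transcript tables quantified on mm10 against GENCODE M21, used here, and M4, used as an alternative. The aligner and quantifier were not given in the sources used here. Column names are those of RSEM, per the file headers. In the authors' deposited tables each gene has an estimated count of its reads, which need not be whole and was rounded here for tests. TPM and the percent of each gene's TPM per transcript were used as deposited, with the deposited posterior SD of counts. Shared reads are divided by estimate.

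The members and lists were chosen with earlier results of these data known. Named are members at a mean of at least 10 TPM, the 2 highest of each role group, those called between libraries, those at 0, expressed members whose lead transcript is non-coding or differs, the 6 highest and 3 lowest partners, and others chosen after their values were seen. Some genes and sequences that fall under this rule are not reported here; they stay in the counts and sums. A gene was called between libraries by a two-sided exact binomial test on counts (at least 10 in either library) against TMM-scaled sizes (edgeR 4.0.16, R 4.3.3), Benjamini-Hochberg 0.05 and 1.5-fold (prior count 2). Gene totals were 32527913 and 34436572 counts; precision is counting error only, since reads carry no molecular identifiers. The libraries differed beyond counting error (chi-square 7.13 per degree of freedom). The test was checked only on simulated counts with counting error alone, a check that does not cover this wider spread. The labels name separate pools of embryos, and p-values describe these libraries only. Coding bases came from GENCODE M21 transcripts. Python 3.11.15, scipy 1.17.1, pandas 2.3.3, numpy 2.4.6 and DESeq2 were used. Alternatives are in the closing section.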

Additional observations from a re-analysis of the deposited data

How the results depend on the processing

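The 48 expressed members became 17 at 5 TPM and 73 at a minimum of 10 counts in both libraries. They were 63 at 0.5 TPM, 50 in the M4 tables, and 49 to 54 in a single library. The summed level was 329 TPM in M4 and 325 to 347 TPM in a single library. Of the members past 1.5-fold between libraries, the 2 called became 7 under spike-in scaling (6 higher and 1 lower in replicate 2), beside 776 of all 20125 genes tested (384 of them higher). They became 1 in the M4 tables (Kcnh6) and 0 on the log2 ratio of TPM + 1, at 2-fold, or by the exact test of edgeR with 1 dispersion for all genes, in which 10 of 77 members and 1594 of 20125 genes had an unadjusted p under 0.05. Both remained without a filter on low counts and with DESeq2 size factors. Single lead transcripts of at least 50% were found in 38 to 40 members in a single library. Of the ratios within groups, only Kcnf1 over Kcnv1 changed sign, to -0.11 without replicate 1 against 0.56 without replicate 2, and 6 of 15 moved by more than their SD in M4, among them Kcnn1 over Kcnn2, from 2.57 to 1.32. The cause was not tested. No paired analysis was possible because the series has 1 group.

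With 2 libraries no single ratio can be tested across replicates. At this depth some members under 1 TPM rest on few reads, whereas others, such as Kcnq3 with 212 and 220 counts, do not. Transcript shares are estimates.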

Other observations

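Kcne1l, an X-linked relative of the MinK genes, is outside the symbol rule and was noticed after its values were seen. It was at 31.0 TPM in replicate 1 and 37.6 TPM in replicate 2 (34.3 ± 4.67, SD, n = 2), above each of the 92 members in mean. The 4 MinK-related members together were at 5.76 and 6.43 TPM.

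Among antisense RNAs named after potassium channel genes, Kcnab3os, Kcnmb4os1 and Kcnd3os were below 1 TPM in both libraries. Kcnmb4os2 was at 4.31 and 4.56 TPM and Kcnq1ot1, the long imprinted transcript inside Kcnq1, at 3.30 and 2.96 TPM from 6427 and 5963 counts. Kcnq1 itself had 65.2 and 49.4 counts. It shares 121 of its 4093 exonic bases with Kcnq1ot1 on the other strand, and which of its reads came from Kcnq1ot1 cannot be told apart. Kcnrg, a regulator that binds Kv channel assembly domains, was at 1.42 and 1.66 TPM.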
